A study of Mus musculus with 40 samples.

Results

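The genes described here encode the mitochondrial machinery that burns fatty acids and makes ketone bodies. The set was given by name and holds 30 genes of the 21500 protein-coding genes in the deposited count table, and all 30 were among the 13993 genes that passed the filter on low counts. Their RNA was measured in the livers of 20 male mice of the strain C57BL/6J, with 10 animals in either group. Every mouse ate CDAA-HFD from 8 weeks of age, a choline-deficient diet built from amino acids with 60% of its energy as fat, 0.1% methionine and no choline added, which is used to produce fatty, inflamed and scarred liver. The controls (mice 31 to 40, called CDAA-HFD mice) stayed on the diet alone. The treated animals (mice 71 to 80, called BLT1i mice) were given BLT1i at 90 mg/kg in addition from the end of week 4, for 8 weeks. Their titles hold a further code, L_286, of unstated meaning. All livers came from mice 20 weeks old. No group on a standard diet was analysed here, so every value is for treated against untreated mice on this diet. BLT1 usually names the leukotriene B4 receptor through which leukocytes are attracted; the labels do not expand it.

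In mitochondrial fatty acid oxidation, a fatty acid joined to coenzyme A is passed onto carnitine, carried across the inner membrane and passed back to coenzyme A. It is then shortened from its end in repeated rounds of dehydrogenation, hydration, a further dehydrogenation and thiolytic cleavage, with the electrons of the opening step passing through the electron transfer flavoprotein to the respiratory chain. In liver, much of the acetyl-CoA that results is turned into ketone bodies and exported, and many of these genes are textbook targets of PPARα, the nuclear receptor that senses fatty acids in hepatocytes.

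The count table held 20994073 to 27456678 counts for a CDAA-HFD mouse and 18467060 to 26078285 for a BLT1i mouse. The tissue label was met by its markers: the summed level of 8 hepatocyte markers spanned 59630 to 72070 CPM (counts scaled to a common library size) without treatment and 60310 to 74160 CPM with it, and 0 of the 8 passed the test. Immediate early genes, which respond within minutes to growth signals, stress and handling, moved with treatment: 13 of 25 were higher. By the same test 3.65% of all tested genes were higher and 1.98% lower. This list was chosen with earlier results of these data known. The summed level of the 25 spanned 1213 to 1954 CPM without treatment and 1983 to 3077 CPM with it, without overlap. For single genes, 0.422% of those tested had every BLT1i mouse above every CDAA-HFD mouse. Of 12 macrophage markers 2 were lower (Laptm5 and Fcer1g). Only 1 of the 12 had a positive log2 fold change, and their median was -0.12. Their mean log2 CPM was 7.154 ± 0.087 (SD) in CDAA-HFD and 7.033 ± 0.112 in BLT1i mice. Their summed levels overlapped, at 2522 to 3501 CPM and 2579 to 3455 CPM. Of 6 endothelial markers 2 were higher (Kdr and Clec4g), with summed levels of 364.9 to 459.4 CPM and 426.1 to 496.7 CPM, and of 6 tested T cell markers Cd8a alone was higher, at 1.95 ± 0.423 CPM in CDAA-HFD and 3.21 ± 0.99 CPM in BLT1i mice (SD, n = 10 each). None of the tested Kupffer cell, neutrophil, B cell, stellate cell, cholangiocyte, adipocyte or erythroid markers passed, and the 5 skeletal muscle markers fell under the filter. Because the RNA comes from whole liver, fewer cells of a type and less RNA per cell cannot be told apart. The sample titles also hold an unexplained number whose values form separate blocks in the groups, so anything that follows that order cannot be told apart from treatment.

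The promoters of these genes are shown because most members rose and because Hadha and Hadhb, which encode the 2 subunits of a single enzyme complex, lie head to head. RefSeq promoters on GRCm38.p6, taken from 250 bases before to 50 bases after each start, were matched for 26 members, which have 28 such promoters; Acat1, Decr1, Acaa2 and Acad9 were not matched. The starts of Hadha and Hadhb are 273 bases apart on opposite strands. In the Hadhb window at chr5:30155003-30155302 on the plus strand, capitals mark the 228 bases that are also in the Hadha window:
Hadhb: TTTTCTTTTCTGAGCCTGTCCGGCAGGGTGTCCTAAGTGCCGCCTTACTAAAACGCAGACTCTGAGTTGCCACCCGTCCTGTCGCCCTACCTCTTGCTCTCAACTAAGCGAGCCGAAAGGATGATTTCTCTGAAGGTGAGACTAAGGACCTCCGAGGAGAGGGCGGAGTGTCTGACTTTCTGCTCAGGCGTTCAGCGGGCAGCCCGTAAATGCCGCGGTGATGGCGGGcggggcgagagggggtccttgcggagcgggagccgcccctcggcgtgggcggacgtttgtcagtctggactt
PPARα binds with RXR to direct repeats of the hexamer AGGTCA that have a base between them. The exact repeat AGGTCANAGGTCA (TGACCTNTGACCT on the other strand) was in 0 of the 28 member promoters and in 0.0396% of the 32851 RefSeq promoters, and with at most 1 mismatch in 0 of 28 and 0.554%. With at most 2 mismatches it was in 4 of 28 member promoters (14.3%) and in 3.86% of all promoters. The hexamer alone, on either strand, was in 6 of 28 (21.4%) and in 16.3% of all, and the hexamers within a repeat are counted there as well. The 4 stretches with such a near match are given with the match in capitals, each read 5′ to 3′ on the strand of its gene. They come from the windows at chr9:108661886-108662185 (plus strand) for Slc25a20, chr9:55512194-55512493 (minus) for Etfa, chr7:140116372-140116671 (minus) for Echs1 and chr14:122534078-122534377 (plus) for the second promoter of Pcca:
Slc25a20: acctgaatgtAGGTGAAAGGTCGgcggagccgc
Etfa: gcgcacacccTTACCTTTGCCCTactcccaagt
Echs1: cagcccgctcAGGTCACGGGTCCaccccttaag
Pcca: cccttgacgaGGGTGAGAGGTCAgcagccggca
In Etfa the match lies on the strand opposite to the gene. Of these 4 genes Slc25a20 alone passed the test described below, and a match of letters does not show that a factor binds there.

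Most of the pathway was higher in BLT1i mice, by modest amounts. Of the 30 members 19 were higher, 1 was lower (Ucp2) and 10 did not pass, at an adjusted p of at most 0.05 (edgeR's quasi-likelihood test, Benjamini-Hochberg over all tested genes). Among all tested genes 5.63% passed, 3.65% as higher and 1.98% as lower. With library totals alone that balance turned, to 2.79% higher and 3.86% lower, and with upper-quartile scaling it was 3.17% and 2.87%, while 19 members were higher and 1 lower under both. The median log2 fold change of the members was 0.27, against -0.01 over all tested genes, and 28 of the 30 were positive, with a range from -0.20 for Ucp2 to 0.80 for Pdk4. Hadhb and Bdh1 had all 10 BLT1i mice above all 10 CDAA-HFD mice, as did 0.422% of all tested genes. Without each mouse in turn 19 to 22 members passed. With the immediate early score (mean log2 CPM of those genes) as a covariate 1 member passed, Eci1, which was 0.49 ± 0.11 (SE) higher on the log2 scale with an adjusted p of 0.029. Fold changes of the 20 members that had passed had a median ratio of 1.002 to those without the covariate, while 64 genes passed in all. Single members shifted both ways, as Cpt1a from 0.33 to 0.17 and Acaa2 from 0.23 to 0.31 on the log2 scale. The immediate early scores overlapped little, at 4.48 to 5.13 in CDAA-HFD and 5.07 to 5.57 in BLT1i mice. The part of the immediate early genes in the members' difference was not tested beyond that fit. With the hepatocyte marker score as covariate 13 members were higher and 1 lower, and Cpt1a, Slc25a20, Slc22a5, Hadh, Acaa2 and Etfb did not pass. The median ratio was 0.84 in that fit. With the mean log2 CPM of the macrophage markers as covariate (macrophage score), chosen after seeing the data, 11 members were higher and 0 lower. Cpt1a, Slc25a20, Slc22a5, Acadvl, Hadh, Acaa2, Etfb, Pdk4 and Ucp2 no longer passed there, and the median ratio was 0.933.

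**Figure D1:**
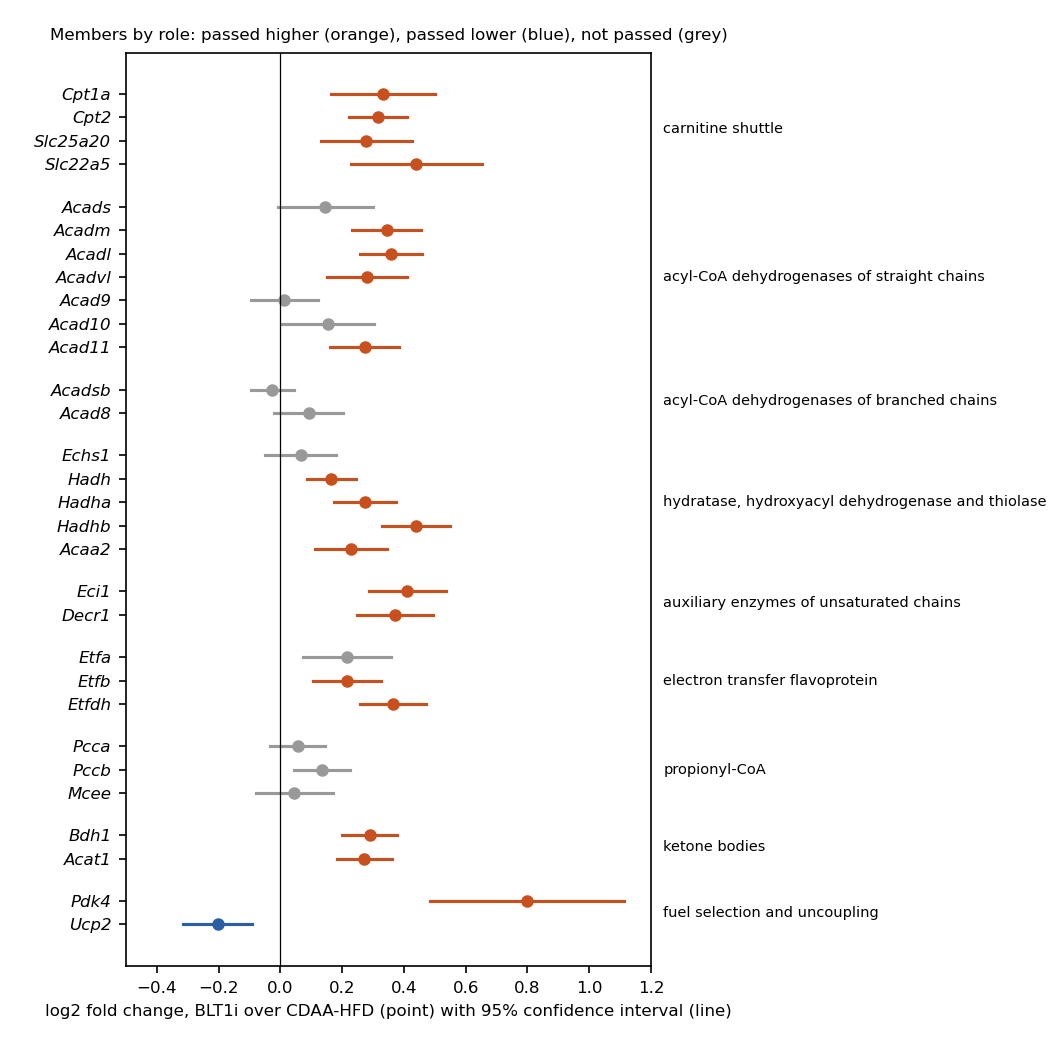
Log2 fold changes of the 30 members (horizontal axis, BLT1i over CDAA-HFD; points with 95% confidence intervals from edgeR), grouped by role. The 4 carnitine shuttle genes, the auxiliary enzymes and the ketone body genes lie to the right of 0 in orange, while the propionyl-CoA and branched-chain genes are grey.

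All 4 genes of the carnitine shuttle were higher. Cpt1a (ENSMUSG00000024900), the outer membrane transferase that is the controlled entry step, ranged from 501 to 726 CPM with a median of 632 in CDAA-HFD mice and from 601 to 973 CPM with a median of 754 in BLT1i mice. Its ranges overlapped, with 6 BLT1i mice above every CDAA-HFD mouse, and its log2 fold change was 0.33 ± 0.08 (SE; adjusted p = 0.0162). With the immediate early score as covariate that value was 0.17 ± 0.14 (adjusted p = 0.695), and with the hepatocyte score 0.28 ± 0.08 (adjusted p = 0.0674). Cpt2, which returns the chain to coenzyme A inside, ranged from 80.8 to 107 CPM (median 90.5) in CDAA-HFD and from 103 to 121 CPM (median 113) in BLT1i mice. It rose by 0.32 ± 0.05 (adjusted p = 8.02e-05), with a smaller spread than Cpt1a. The carnitine-acylcarnitine exchanger Slc25a20 went from a mean of 76.9 ± 10.2 (SD) to 93.2 ± 10.3 CPM, a log2 fold change of 0.28 ± 0.07 (adjusted p = 0.0214). Slc22a5, which takes up carnitine from the blood, was the lowest of these on the FPKM scale and had the widest interval. Its level was 26.4 ± 3.8 CPM in CDAA-HFD and 35.9 ± 6.83 CPM in BLT1i mice, a log2 fold change of 0.44 ± 0.10 (adjusted p = 0.013). With the hepatocyte score as covariate the adjusted p was 0.058 for Slc22a5 and 0.0928 for Slc25a20, so Cpt2 alone of the 4 passed in that fit.

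Of the 9 members of the acyl-CoA dehydrogenase family, some of which open each round, 4 were higher. Acadl, for long chains, ranged from 142 to 190.0 CPM (median 157) in CDAA-HFD and from 187 to 239.7 CPM (median 204) in BLT1i mice; 9 BLT1i mice exceeded every control and its log2 fold change was 0.36 ± 0.05 (adjusted p = 4.2e-05). Acadm, for medium chains, ranged from 189.9 to 249.6 CPM (median 220.4) and from 243 to 337 CPM (median 275), with 9 BLT1i mice above every control and a log2 fold change of 0.34 ± 0.05 (adjusted p = 0.000239). These neighbours in chain length thus had nearly the same change. Acadvl, the membrane-bound enzyme for very long chains, was 178 ± 20.3 CPM in CDAA-HFD and 216 ± 19.6 CPM in BLT1i mice (log2 fold change 0.28 ± 0.06, adjusted p = 0.00795), and Acad11, a less studied relative, was 253 ± 23.8 and 305 ± 25.6 CPM (0.27 ± 0.05, adjusted p = 0.00306).

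The remaining 5 dehydrogenases did not pass. Acads, for short chains, was 113 ± 17.4 CPM in CDAA-HFD and 125 ± 9.9 CPM in BLT1i mice (log2 fold change 0.15 ± 0.07, 95% interval -0.01 to 0.30, adjusted p = 0.283), and Acad10 had a log2 fold change of 0.15 ± 0.07 (adjusted p = 0.232). Acad9, known chiefly for helping to assemble respiratory complex I, had 0.01 ± 0.05 with a 95% interval of -0.10 to 0.12, and its sign was negative under 2 of the other scalings. The branched-chain enzymes Acadsb and Acad8, which serve isoleucine and valine breakdown, had -0.03 ± 0.03 (interval -0.10 to 0.05) and 0.09 ± 0.06 (interval -0.02 to 0.20). For Acad9, Acadsb and Acad8 the upper ends of the intervals thus lie under the estimates of Acadl and Acadm, though a difference between genes was not tested.

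The trifunctional protein, a membrane complex of Hadha and Hadhb that runs the last 3 steps for long chains, rose in both subunits. Hadhb (ENSMUSG00000059447), the thiolase subunit, ranged from 131 to 159.9 CPM (median 145) in CDAA-HFD and from 168 to 239 CPM (median 198) in BLT1i mice. Its groups did not overlap, and it had the lowest adjusted p of the members, 9.75e-06, at a log2 fold change of 0.44 ± 0.05. Hadha, the hydratase and dehydrogenase subunit, ranged from 263 to 339 CPM (median 293) and from 323 to 413 CPM (median 349.7), with 6 BLT1i mice above every control and a log2 fold change of 0.28 ± 0.05 (adjusted p = 0.000874). The Hadhb to Hadha ratio in CPM was 0.498 ± 0.05 in CDAA-HFD and 0.555 ± 0.0241 in BLT1i mice (SD, n = 10), with overlapping ranges.

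The soluble enzymes of the later steps showed smaller values. Hadh, the dehydrogenase for shorter chains, ranged from 196 to 229 CPM in CDAA-HFD and 222 to 271 CPM in BLT1i mice, with a log2 fold change of 0.17 ± 0.04 (adjusted p = 0.0113), and this was the smallest rise that passed. Acaa2, the thiolase for shorter chains, was 294 ± 29.6 and 345 ± 28.5 CPM (0.23 ± 0.06, adjusted p = 0.016). Echs1, the matching hydratase, did not pass: it was 114 ± 11.6 and 119 ± 8.92 CPM (0.07 ± 0.06, adjusted p = 0.572). The auxiliary enzymes that let unsaturated chains through both rose. Eci1, an enoyl-CoA isomerase, went from 54.8 ± 5.53 to 72.9 ± 7.61 CPM (0.41 ± 0.06, adjusted p = 0.000109), and Decr1, a dienoyl-CoA reductase, from 99.2 ± 11.5 to 128 ± 11.1 CPM (0.37 ± 0.06, adjusted p = 0.000358).

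**Figure D2:**
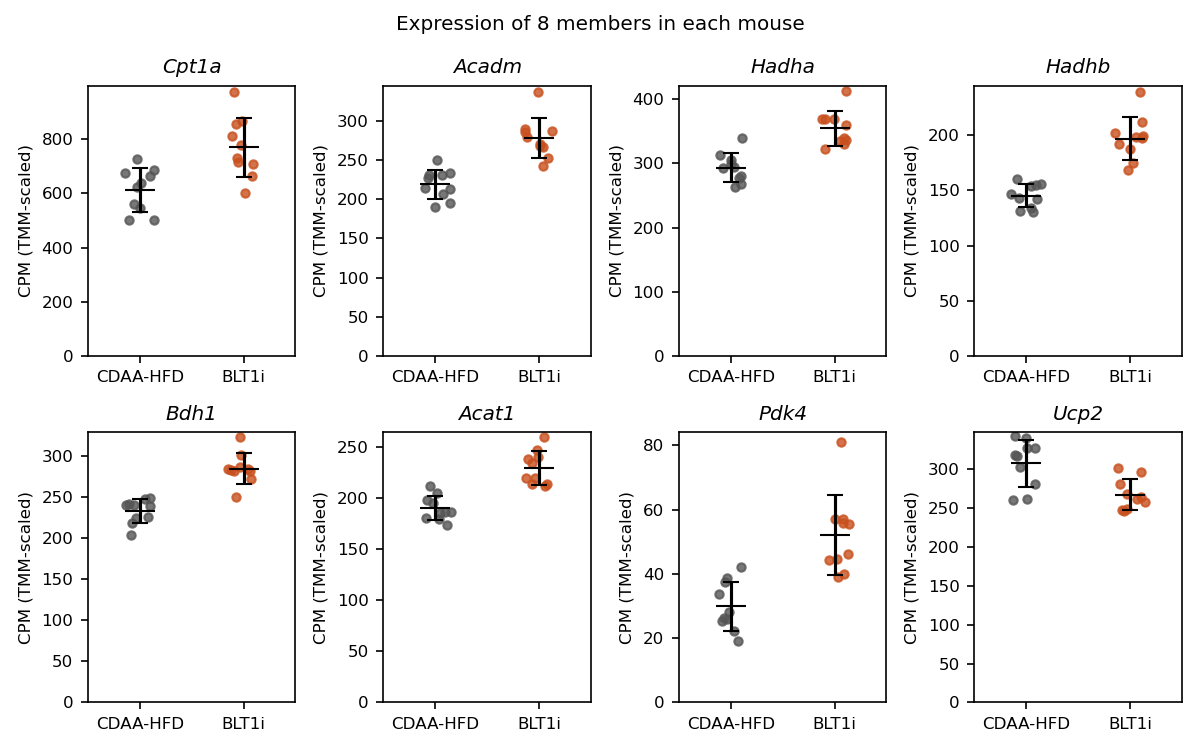
Levels of 8 members in each mouse (vertical axis, TMM-scaled CPM from 0; points are mice, bars the mean and SD of 10 mice a group). Hadhb and Bdh1 do not overlap between the groups, BLT1i mouse 79 is the highest BLT1i point for Pdk4 at 80.9 CPM, and Ucp2 is the panel that goes down.

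Of the 3 electron carrier genes 2 were higher. Etfdh, the oxidoreductase that hands the electrons on to ubiquinone, ranged from 146 to 183 CPM (median 159) in CDAA-HFD and from 175 to 243 CPM (median 209) in BLT1i mice (0.36 ± 0.05, adjusted p = 6.97e-05). The flavoprotein subunits Etfb and Etfa had nearly equal log2 fold changes, 0.22 ± 0.05 (adjusted p = 0.0157) and 0.22 ± 0.07 (adjusted p = 0.0665), and of these Etfb alone passed. Etfa varied more among CDAA-HFD mice, from 90.8 to 145 CPM, and it passed without mouse 37 (adjusted p = 0.0119), without mouse 75 (0.0431) and with DESeq2 (0.0359).

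The 3 genes that carry propionyl-CoA, the end of odd-numbered chains, toward succinyl-CoA did not pass. The carboxylase subunits Pcca and Pccb had log2 fold changes of 0.06 ± 0.04 (interval -0.03 to 0.15) and 0.13 ± 0.04 (interval 0.04 to 0.22; adjusted p = 0.0702), and the epimerase Mcee 0.05 ± 0.06 (interval -0.08 to 0.17). Pccb was above the CDAA-HFD median in all 10 BLT1i mice, and it passed without mouse 37 (adjusted p = 0.0283) and with DESeq2 (0.0396).

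Both ketone body genes among the members rose. Bdh1 (ENSMUSG00000046598), which interconverts acetoacetate and beta-hydroxybutyrate, ranged from 203 to 248 CPM (median 239) in CDAA-HFD and from 249.5 to 322 CPM (median 283) in BLT1i mice. The groups did not overlap, though the highest control and the lowest treated mouse were close, and the log2 fold change was 0.29 ± 0.04 (adjusted p = 0.000106). Acat1, the mitochondrial thiolase that joins acetyl-CoA units, ranged from 174 to 212 CPM (median 187) and from 212 to 260.1 CPM (median 227), with 9 BLT1i mice above every control (0.27 ± 0.04, adjusted p = 0.000314).

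Pdk4 and Ucp2, which sit beside the pathway, had the extreme values of the set. Pdk4 (ENSMUSG00000019577), a kinase that shuts off pyruvate dehydrogenase and so spares glucose while fat is burned, ranged from 19.0 to 42.0 CPM (median 27.2) in CDAA-HFD and from 38.9 to 80.9 CPM (median 50.9) in BLT1i mice. With 8 BLT1i mice above every control, it was 1.74-fold higher, a log2 fold change of 0.80 ± 0.15 (adjusted p = 0.00312). Pdk4 did not pass with the immediate early score as covariate (0.53 ± 0.26, adjusted p = 0.461). Nor did it with the macrophage score (0.68 ± 0.18, adjusted p = 0.0568), an alternative chosen after seeing the data. Ucp2 (ENSMUSG00000033685), an inner membrane carrier of the uncoupling protein family that is known in liver from macrophages as well as fat-laden hepatocytes, ranged from 260.5 to 342 CPM (median 318) and from 246 to 301 CPM (median 263). All 10 BLT1i mice were under the CDAA-HFD median, and it fell by 0.20 ± 0.05 on the log2 scale (adjusted p = 0.0245). That call did not hold without mouse 34 (adjusted p = 0.0522), without mouse 79 (0.0519), on log2 FPKM plus 1 (0.0968) or with the mean log2 CPM of the macrophage markers as a covariate (0.333, log2 fold change -0.12), an alternative chosen after seeing the data.

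Gene lengths allow an order of levels only through FPKM, in which counts are divided by length and depth and which the authors deposited as rounded values. On that scale Acaa2 was highest in CDAA-HFD mice at 169 ± 15.4 (SD), then Cpt1a at 128 ± 15.6, while Etfb (109 ± 7.18), Ucp2 (106 ± 10.4), Bdh1 (102.5 ± 8.26), Hadh (102 ± 4.53) and Acadm (101 ± 8.45) lay within their spread of each other. The lowest were Slc22a5 at 7.3 ± 1.06, Pdk4 at 7.0 ± 1.94 and Acad10 at 6.7 ± 0.949, which also lay within their spread. In BLT1i mice Pdk4 was at 12.8 ± 3.12, above Slc22a5 at 9.6 ± 1.84 and Acad10 at 7.2 ± 0.632.

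**Figure D3:**
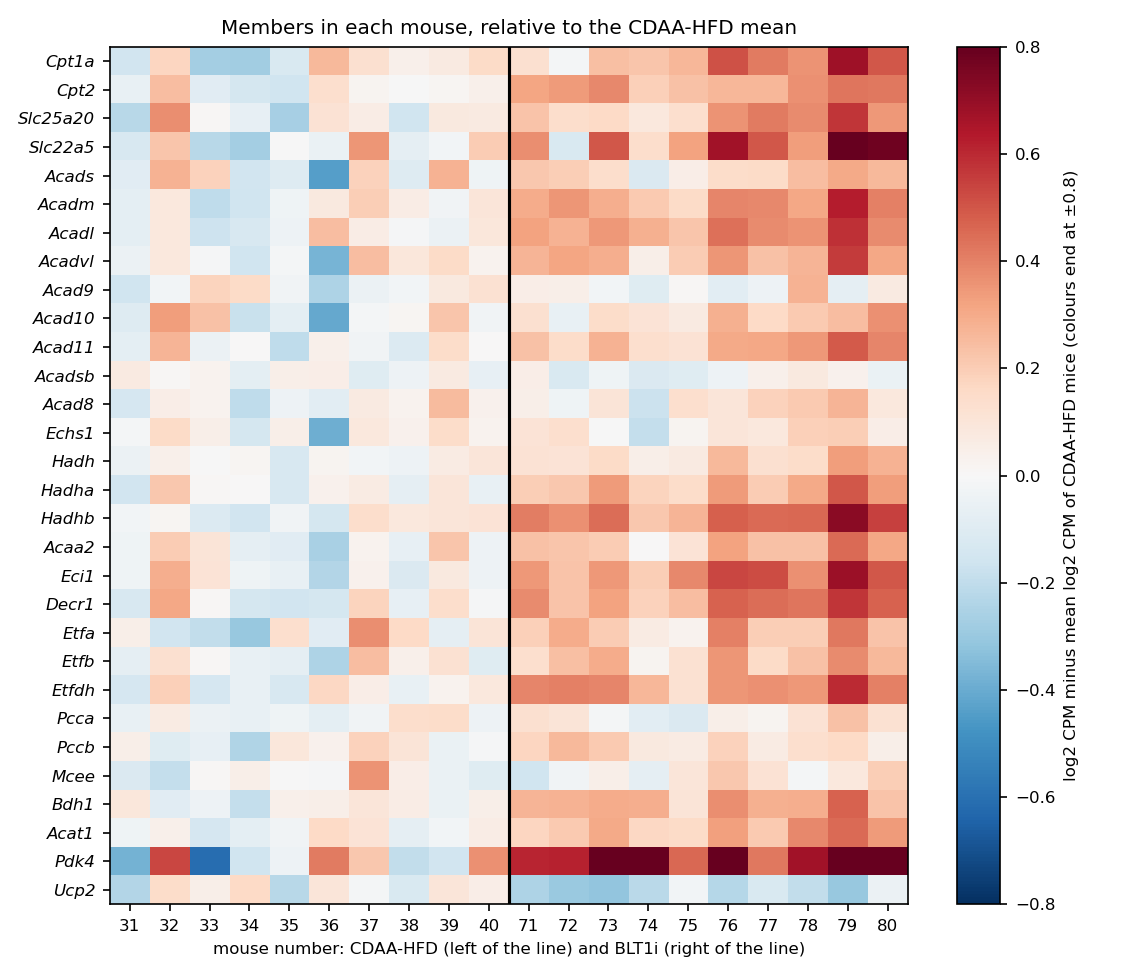
Level of each member (rows) in each mouse (columns) as log2 CPM minus the mean of the CDAA-HFD mice. The BLT1i columns are mostly red, the column of mouse 79 most of all. Ucp2 is pale blue in most BLT1i mice and near white in mice 75 and 80. Mouse 36 is blue for Acads, Acad10, Acadvl and Echs1 but red for Pdk4 and Cpt1a.

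Mice within a group differed in the pathway as a whole. Mouse 79 was the highest BLT1i mouse for 24 of the 30 members, and mouse 74 was the lowest for 13. In CDAA-HFD mice no animal stood out so widely: mouse 32 was highest for 11 members and mouse 37 for 9, while mouse 36 was lowest for 9 and highest for 3. Without mice 36 and 79 together, an alternative chosen after seeing the data, 19 members were higher and Ucp2 did not pass. Mouse 36 also had the strongest relation to base composition: across 13959 genes, its deviation from its group had a Spearman rho of -0.311 with transcript GC content, against -0.15 to 0.21 in the other mice. Mouse 37 had the strongest relation to transcript length, with a rho of -0.296, against -0.11 to 0.186 in the other mice. The difference between the groups had a rho of -0.028 with GC and -0.039 with length. The members' median GC of 50.2% was close to the 50.1% of all tested genes, but single members ranged from 42.7% to 60.1%. In mouse 36, Acads (60.1% GC) deviated by -0.442 on the log2 scale and Pdk4 (44.9%) by 0.416. Against that order, Ucp2 (55.0%) deviated by 0.094 and Hadhb (45.4%) by -0.141. The part of GC content in the members' values in that mouse was not tested.

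Members covaried across mice within a group. Over the 435 pairs of members, the median Pearson r of log2 CPM was 0.258 among the 10 CDAA-HFD mice and 0.634 among the 10 BLT1i mice. An r above 0.5 was held by 29.2% and 63.0% of these pairs, against 10.4% and 10.1% of all pairs of tested genes. The CDAA-HFD median was 0.152 on log2 FPKM plus 1 and 0.167 with library totals, and the BLT1i median 0.527 and 0.506. Without mouse 36 the CDAA-HFD median was 0.406, and without mouse 79 the BLT1i median was 0.496. The difference between the groups in this covariation was not tested, and it was narrower between these values. Hadhb followed the mean of the other members closest in BLT1i mice (r = 0.981) and Decr1 in CDAA-HFD mice (0.922). Acad9 followed it in neither group (-0.01 and -0.03), and Ucp2 had 0.308 in CDAA-HFD and -0.224 in BLT1i mice.

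Within CDAA-HFD mice, 2 clusters of members could be seen, which were read off the values and carry no test. With an r of at least 0.8 to Cpt1a stood Cpt2, Acadm, Acadl, Etfdh, Acat1 and Pdk4. With an r of at least 0.8 to Acads stood Acadvl, Acad10, Echs1, Acaa2, Eci1, Decr1 and Etfb. The median r between the clusters was -0.04, but 0.50 without mouse 36 and 0.67 in BLT1i mice, so the separation did not hold without mouse 36. That mouse also had the strongest relation to GC content, and the part of GC in the clusters was not tested. The members of the first cluster share no listed step of the pathway, since it holds transferases, dehydrogenases, a thiolase and a kinase.

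**Figure D4:**
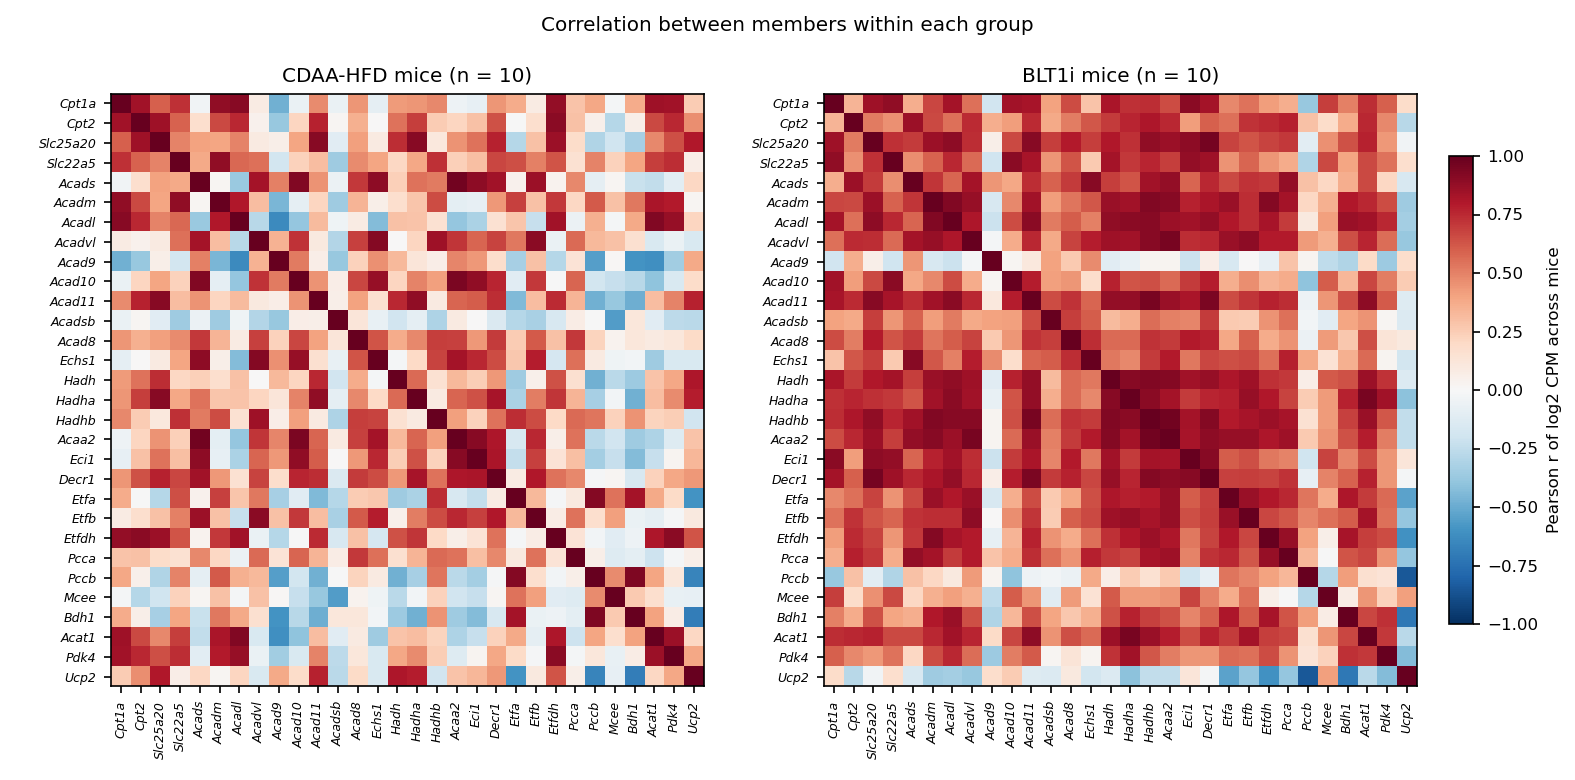
Pearson r between the log2 CPM of each pair of members across the 10 CDAA-HFD mice (left) and the 10 BLT1i mice (right), from blue (-1) to red (1). Red fills most of the BLT1i panel, where the median r is 0.634, and the rows of Acad9, Pccb and Ucp2 stay pale or blue there.

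Of 8 pairs of genes tested in each group, some of them partners in an enzyme complex, 7 of 16 relations passed by Pearson's r and 8 by Spearman's rho (permutation test, two-sided, Benjamini-Hochberg over the 16). The subunits Hadha and Hadhb had r = 0.906 and rho = 0.806 in BLT1i mice (permutation adjusted p = 0.00248 and 0.0186), and r = 0.738 without the 2 mice farthest from the median (adjusted p = 0.0486). In CDAA-HFD mice the same pair had r = 0.091 and rho = 0.2 (permutation adjusted p = 0.859 and 0.718). Etfa and Etfb had r = 0.866 and rho = 0.939 in BLT1i mice (permutation adjusted p = 0.00525 and 0.00373), and r = 0.722 without the 2 farthest mice, which no longer passed, while in CDAA-HFD mice r was 0.33. Pcca and Pccb passed in neither group, with r = 0.054 and 0.334. These complexes varied together in BLT1i mice for 2 of the 3 and in CDAA-HFD mice for none that passed. The difference between groups was not tested. Over all 435 pairs of members the median r in BLT1i mice was 0.634, and 63.0% were above 0.5. Slc25a20 and Acad11, which form no complex, had r = 0.911 there. Such values were thus not particular to partners in a complex.

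Cpt1a and Cpt2 had r = 0.842 and rho = 0.915 in CDAA-HFD mice (permutation adjusted p = 0.00525 and 0.00373; 0.821 without the 2 farthest mice), and r = 0.336 in BLT1i mice. Cpt1a and Pdk4, both known targets of PPARα, had r = 0.839 and rho = 0.867 in CDAA-HFD mice (permutation adjusted p = 0.00803 and 0.00792; r = 0.829 without the 2 farthest) and r = 0.599 in BLT1i mice (adjusted p = 0.106). With Ppara itself, Cpt1a had r = 0.907 and rho = 0.915 in BLT1i mice (permutation adjusted p = 0.00248 and 0.00373; r = 0.878 without the 2 farthest) and r = 0.594 in CDAA-HFD mice (adjusted p = 0.0942). Acadm and the peroxisomal enzyme Ehhadh had r = 0.872 and rho = 0.782 in BLT1i mice (permutation adjusted p = 0.00525 and 0.0239), but r = 0.689 without the 2 farthest mice, which did not pass. In CDAA-HFD mice that pair had r = 0.645 and rho = 0.745 (permutation adjusted p = 0.0925 and 0.034), so it passed by rank alone. Ucp2 and the macrophage marker Cd68 had r = 0.72 and rho = 0.83 in BLT1i mice (permutation adjusted p = 0.0473 and 0.0157), r = 0.57 without the 2 farthest, which did not pass, and r = 0.472 in CDAA-HFD mice.

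The neighbouring parts of fat metabolism were looked up in lists named alongside the members. The shares to set beside their counts are 3.65% higher and 1.98% lower among all tested genes. Of 20 other mitochondrial fatty acid oxidation and ketone genes 9 were higher and none lower, with a median log2 fold change of 0.17. Acsl1, which activates fatty acids with coenzyme A, went from 438 ± 72 to 642 ± 67.9 CPM (0.55 ± 0.08, adjusted p = 8.79e-05), and the thioesterase Acot2, which does the reverse inside the mitochondrion, from 19.5 ± 4.99 to 34.05 ± 8.82 CPM (0.80 ± 0.15). Crat and Mlycd, which buffer acetyl groups with carnitine and remove malonyl-CoA, had 0.36 ± 0.07 and 0.27 ± 0.06. Of 19 peroxisomal beta-oxidation genes 11 were higher and none lower (median 0.26), among them Ehhadh at 1.22 ± 0.08, Acaa1b at 0.93 ± 0.09 and the transporter Abcd3 at 0.29 ± 0.05. Ehhadh and Acaa1b had larger estimates than any mitochondrial member, and these differences were not tested.

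Of 21 regulators 2 were higher and none lower (median 0.04); 1 passed without mouse 79 and 4 with DESeq2. Acacb, which makes the malonyl-CoA that blocks Cpt1a at the outer membrane, went from 58.1 ± 8.6 to 87.2 ± 9.67 CPM (0.59 ± 0.08, adjusted p = 4.2e-05). The RNAs of the entry enzyme and of the enzyme that makes its inhibitor were thus higher in the same group. Malonyl-CoA itself was not measured here. Creb3l3, a liver factor that works with PPARα in fasting, had 0.24 ± 0.07 (adjusted p = 0.0266). Ppara was 123.5 ± 17.6 CPM in CDAA-HFD and 146 ± 17.4 CPM in BLT1i mice (0.24 ± 0.08, adjusted p = 0.0869) and Pparg had 0.20 ± 0.06 (adjusted p = 0.0573), and neither passed. Of 11 other genes of pyruvate dehydrogenase 3 were higher: Dlat, Pdha1 and the phosphatase Pdp2, at 0.24 ± 0.05, 0.14 ± 0.03 and 0.21 ± 0.06. Pdk4 was the only kinase of the family that passed; Pdk1, Pdk2 and Pdk3 did not, and differences between the kinases were not tested.

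Of 16 citrate cycle genes 7 were higher and none lower (median 0.14), with Suclg1 at 0.25 ± 0.04 (adjusted p = 9.22e-05). Of 12 genes for mitochondrial import and channels Hspd1 (0.23 ± 0.04) and Tomm70a (0.12 ± 0.03) were higher and none lower (median 0.06), but the count was 1 when mouse 32, 33, 34, 72, 73, 76, 77, 78 or 79 was left out alone, and with library totals. Of the other uncoupling proteins 3 were tested, and Slc25a30 was higher, from 73.7 ± 13.2 to 134 ± 39.5 CPM (0.86 ± 0.16, adjusted p = 0.0027); Ucp1 and Ucp3 fell under the filter. With the immediate early score as covariate, 3 genes of these lists passed, 2 peroxisomal genes and 1 regulator.

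**Figure D5:**
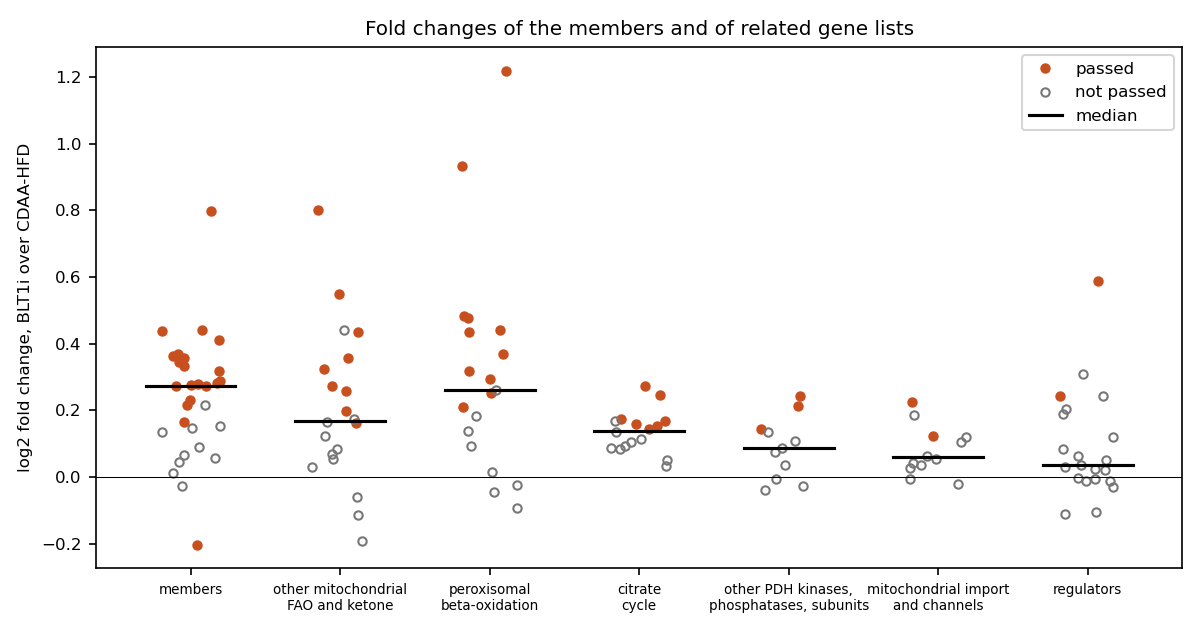
Log2 fold changes of the tested genes of the member set and of 6 related lists (vertical axis, BLT1i over CDAA-HFD; filled points passed, open points did not, bars are list medians). The medians run from 0.27 for the members and 0.26 for peroxisomal genes down to 0.14 for the citrate cycle and 0.04 for the regulators.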

How the data were processed

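Per the labels' protocols, RNA extraction included DNase digestion, and libraries came from a stranded kit for total RNA with ribosomal depletion; the molecule field instead reads polyA RNA. The 40 listed samples are 2 lanes for each of 20 mice. Since the deposited tables hold a column for each mouse, the mouse served as replicate. Per the submitters' processing notes, the build was GRCm39. Aligner, counting program, strand setting and lane merging: not given in the sources used here. Main tests used the whole-number counts for protein-coding genes that the authors deposited. Their FPKM values, deposited as rounded whole numbers, were treated as a score. Names were matched for 21457 of 21500 identifiers. All 45 pairs of mice in each group differed beyond sampling noise, with a chi-square of at least 6.17 for each degree of freedom.

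After filterByExpr and TMM scaling, genes were tested in edgeR 4.0.16 under R 4.3.3 (robust quasi-likelihood F-test, two-sided, no covariate), with Benjamini-Hochberg adjustment over 13993 genes and a threshold of 0.05. The test was checked on simulated data. CPM are TMM-scaled, log2 CPM use a prior count of 2, and errors of log2 fold changes are SE. Correlations were computed within a group, with 100000 permutations for the 8 pairs. Alternatives were other scalings and filters, DESeq2 1.42.0, limma 3.58.1 on counts (voom) and on log2 FPKM, covariates, a test against a fold of 1.1, and each mouse left out. Marker and pathway lists, and the members, were chosen with earlier results of these data known. All members are named, and up to 4 genes with the lowest p of each list, of which 1 is not reported here; Pdk1, Pdk2, Pdk3, Ucp1 and Ucp3 were named after their values were seen.

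In GENCODE M21, exons of Acadvl, Echs1, Etfdh, Hadha, Pcca, Ucp2 and Acad11 overlap a gene on the opposite strand, and those of Etfb and Acad11 an untested gene on the same strand, so their counts may include reads of these neighbours.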

Additional observations from a re-analysis of the deposited data

Results flagged for a closer look

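Of 60 sets of 10 values, 1 for each member in each group, 5 had a mouse that stood apart from the others. The bound was Dixon's 95% limit for 10 values (a gap of 0.466 of the whole range), which chance alone passes in about 1 in 20 sets. Since members covary across mice, the sets are not independent, and the count of 5 was not tested against that rate. Mouse 79 was the highest BLT1i mouse in 3 of the 5 sets. For Acadm it had 337.1 CPM with the next mouse at 289.1, for Hadha 412.9 CPM with the next at 369.4, and for Pdk4 80.87 CPM with the next at 57.08. BLT1i mouse 78 had 57.07 CPM of Acad9, above the next at 49.35, and the CDAA-HFD mouse 37 had 20.11 CPM of Mcee, above the next at 16.28. Acadm, Hadha and Pdk4 still passed without mouse 79, and Acad9 and Mcee passed with or without these mice in no fit that left out 1 mouse.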

How the results depend on the processing

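The 3 other scalings (RLE, upper quartile, library totals), both other filters (at least 1 count; 1 CPM in 10 mice) and voom left 19 members higher and Ucp2 lower; DESeq2 gave 21 higher and 1 lower, and log2 FPKM with either pseudocount 19 higher and 0 lower. The immediate early score as covariate left 64 genes, 1 member and 3 genes of the pathway lists (788, 20 and 35 without it), the hepatocyte score 437 genes, 14 members and 23 list genes, the macrophage score 244, 11 and 13, and the test against a fold of 1.1 161, 10 and 13; the last 2 were chosen after seeing the data, and the cause was not tested. The median SE of the members was 0.0541, and 0.0949 with the immediate early score. Leaving out each mouse gave 565 genes (without mouse 79) to 889 (without mouse 75). Acad9 turned to -0.00 with upper-quartile scaling, -0.016 with library totals, -0.013 with the hepatocyte score, -0.012 without mouse 36 and -0.018 without mouse 78 (0.035 at most without any mouse), and with the immediate early score Acadsb turned to 0.055 and Mcee to -0.02. Of the 16 relations 4 passed without the 2 farthest mice; the r of Etfa and Etfb in CDAA-HFD turned to -0.225 and that of Pcca and Pccb to -0.097 (CDAA-HFD) and -0.063 (BLT1i), and with library totals that of Hadha and Hadhb in CDAA-HFD to -0.133. No paired analysis was possible because the groups share no mouse numbers. All members were well counted: the lowest mean in CDAA-HFD mice was 15.8 CPM (Mcee).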
